A study of Homo sapiens with 24 samples.

Results

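A set of 10 genes that act on or around mTORC1, or that code for Tribbles pseudokinases, was followed through the 6 treatment groups of an RNA-Seq experiment in HepG2 cells, an established human hepatoma line. They were chosen by name, with earlier results of these data known. The set holds *DDIT4*, *SESN2*, *SESN3*, *EIF4EBP1* and *DEPTOR*, the Rag GTPase genes *RRAGC* and *RRAGD*, and *TRIB1*, *TRIB2* and *TRIB3*. All 10 were found among the 18915 genes of the count table, and 9 of them were among the 12685 genes that passed the filter on low counts, *SESN3* being the exception. The cells received fresh complete medium for 10 h with DMSO as vehicle, ISRIB at 50 nM, nelfinavir at 20 µM, bortezomib at 50 nM, bortezomib with nelfinavir, or bortezomib with ISRIB, the pairs at the same doses as the single compounds. Each group held 4 libraries, described as biological replicates. All groups came from 1 line, and the measurements were made at 1 time and 1 dose of each compound.

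mTORC1 is a kinase complex that promotes protein synthesis and cell growth when amino acids and growth factors are plentiful. DDIT4 (REDD1) restrains it through the TSC complex, Sestrins restrain it by binding the GATOR2 complex when leucine is scarce, DEPTOR binds the kinase itself, and 4E-BP1, the product of *EIF4EBP1*, is an mTORC1 substrate that blocks cap-dependent translation when it is not phosphorylated. RagC and RagD pair with RagA or RagB to bring mTORC1 to the lysosome. Tribbles proteins are scaffolds with a kinase-like fold: TRIB1 and TRIB2 bring C/EBP proteins to the COP1 ubiquitin ligase, and TRIB3 binds ATF4 and AKT. Bortezomib inhibits the proteasome, nelfinavir is an HIV protease inhibitor that also raises ATF4, and ISRIB acts on eIF2B to relieve the block on translation set by phosphorylated eIF2α. *DDIT4*, *SESN2*, *TRIB3* and *EIF4EBP1* are known ATF4 target genes.

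Sequences around the gene starts are shown first, because a C/EBP-ATF composite site, the kind of element that ATF4 binds, was sought in all members. The letters TGATGNAA were searched on both strands, where overlapping matches each count. None of the 6 members with a RefSeq promoter window (GRCh38.p14, 250 bases before to 50 after the start) held a match, beside 3.62% of 35116 such windows. In wider windows of 2000 bases on either side of the start on GRCh37, chosen after the promoter windows had given none, *TRIB3* held 5 matches, *DDIT4* 4, and *SESN2* and *EIF4EBP1* 2 each, while the other 6 members held none. Of 18202 windows of this size, 40.4% held at least 1 match, 11% at least 2, 0.467% at least 4 and 0.0714% at least 5. The *DDIT4* run covers the 4 upstream matches, and each other run covers 1 match. Capitals mark the match, which reads TGATGNAA or its reverse complement.
DDIT4, 1169 to 942 bases upstream, chr10:74032489-74032763, plus strand of GRCh37: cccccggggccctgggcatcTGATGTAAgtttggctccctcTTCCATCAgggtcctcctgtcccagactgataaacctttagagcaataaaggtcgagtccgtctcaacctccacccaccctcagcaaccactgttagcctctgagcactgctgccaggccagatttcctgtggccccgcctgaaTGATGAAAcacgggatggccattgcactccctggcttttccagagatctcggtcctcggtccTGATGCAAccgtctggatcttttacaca
SESN2, 296 bases upstream, chr1:28585713-28585760, plus strand: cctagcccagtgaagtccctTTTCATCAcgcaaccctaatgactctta
SESN2, 552 bases into the gene, in an intron, chr1:28586561-28586608, plus strand: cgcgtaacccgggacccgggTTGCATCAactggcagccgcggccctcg
TRIB3, 132 bases after the start, in the 5′ UTR, chr20:361525-361554, plus strand: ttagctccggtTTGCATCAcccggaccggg
The 30 bases shown for *TRIB3* occurred 3 times, letter for letter, at a spacing of 33 bases, with matches at 132, 165 and 198 bases after the start of the canonical transcript. Its other matches lay 1390 and 1902 bases after that start, in an intron. These distances and the 5′ UTR label hold for the canonical transcript only. The promoter windows were placed on RefSeq starts, which can differ from it, so the lack of a *TRIB3* match there depends on the start chosen. The paper describes a human *TRIB3* promoter construct with 3 C/EBP-ATF sites in repeats of 33 bases. A match is a description of the letters, and no binding was measured in these libraries. In separate ChIP-Seq assays of bortezomib-treated HepG2 cells with tagged TRIB3, the paper mapped where ATF4 and TRIB3 bind chromatin. It reports TRIB3 binding at the *DDIT4* and *TRIB3* promoters. Whether the matches shown here lie in those bound regions was not checked.

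**Figure D1:**
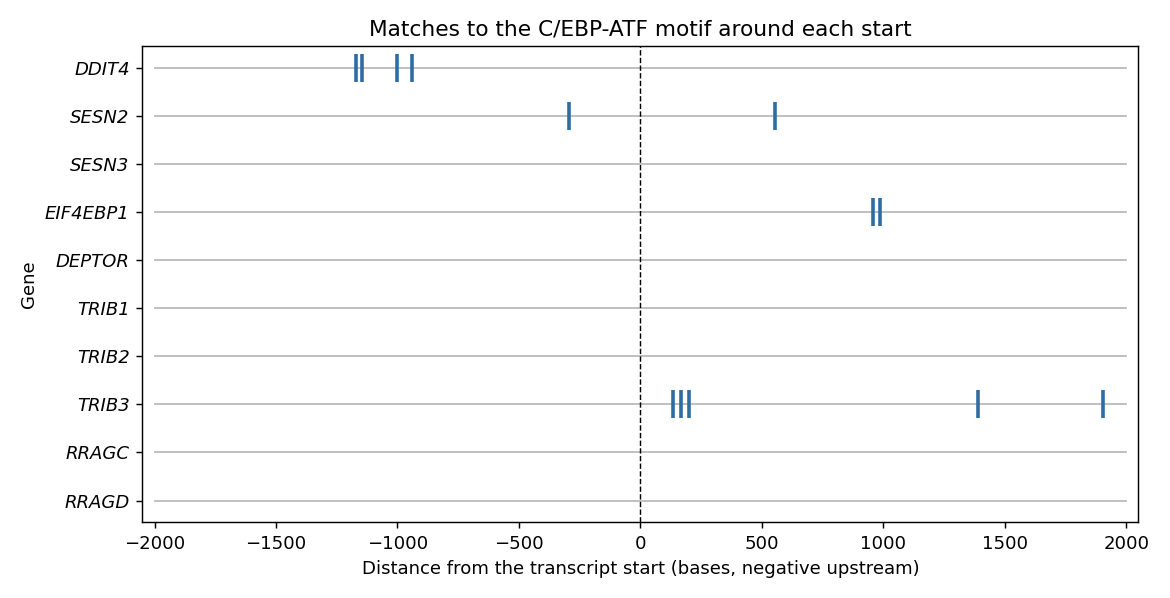
Positions of TGATGNAA matches on either strand, as distance in bases from the transcript start, for the 10 genes. The 4 *DDIT4* matches lie together between 1169 and 942 bases upstream, and 6 genes have no match. Of the 5 *TRIB3* matches, 3 lie 132, 165 and 198 bases downstream of the start of the canonical transcript.

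The libraries held 5154533 to 6943164 counts each. Levels are given as CPM, that is, counts scaled to a library's total and corrected with a TMM factor. The kit reads transcripts from the 3′ end, so that a count does not grow with transcript length, but the share of a transcript's molecules that is read can differ between genes. The 6 hepatocyte markers were read in every group, *ALB* at group means of 2065 to 3323 CPM, and none of them was at 0. Their summed level moved with the groups, from 8529 to 9502 CPM with DMSO and 7754 to 9001 with nelfinavir to 5647 to 6261 with bortezomib. It was 3678 to 5196 CPM with bortezomib and nelfinavir and 5526 to 7617 with bortezomib and ISRIB. With bortezomib against DMSO 4 of the 6 were lower, *AFP* at 0.418 times, *TTR* at 0.355, *APOA1* at 0.651 and *HNF4A* at 0.811, while *ALB* (0.877) and *SERPINA1* (0.925) were not called. The part of this shift in the members' changes was not tested. Of the 6 markers of other cell types, 2 were in the table, *COL1A1* and *COL3A1*, and their summed level was 0 to 1.11 CPM. Mitochondrially encoded genes took 21.5% ± 1.32 (SD, n = 4) of counts with DMSO, 20.5% ± 1.66 with nelfinavir and 33.8% ± 1.20 with bortezomib. They took 27.2% ± 2.26 with bortezomib and nelfinavir and 36.1% ± 3.13 with bortezomib and ISRIB. With these genes removed before scaling, none of the 63 tests of members changed its call.

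A gene is called higher or lower where edgeR's quasi-likelihood test, fitted to all 24 libraries, gave a Benjamini-Hochberg adjusted p under 0.05 over all 12685 genes. With bortezomib against DMSO, 6 members were higher and 2 lower, while 27.6% of all genes tested were higher and 25.8% lower. The median log2 fold change of the 9 members tested was 1.56, beside 0.002 over all genes. The members were chosen with earlier results of these data known. Their counts and medians, here and below, thus describe the chosen genes and are no test of the set. With nelfinavir against DMSO, 5 members were higher and 0 lower, beside 10.4% and 8.84% of all genes, and the members' median was 0.77 beside 0.007 over all genes. These comparisons share their DMSO libraries. With ISRIB against DMSO no member was called by edgeR or by DESeq2, beside 0% higher and 0% lower of all genes by edgeR and 3 genes by DESeq2. The members *EIF4EBP1* and *RRAGD* had an unadjusted p under 0.05, as did 703 of all genes. In bulk RNA a lower level per cell and fewer cells of a state cannot be told apart, and all levels are relative to the total RNA read.

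When nelfinavir was added to bortezomib, 4 members were higher and 1 lower than with bortezomib alone, beside 15.6% and 13.4% of all genes. When ISRIB was added, 2 were higher and 3 lower, beside 6.91% and 5.34%. Both co-treatments were set against the same bortezomib libraries. The interaction, which is the log2 change a compound made in the presence of bortezomib minus its change without it, was also tested. For nelfinavir it was above 0 for 1 member and below 0 for 4, beside 9.74% and 10% of all genes. For ISRIB it was above 0 for 2 and below 0 for 3, beside 2.93% and 1.89%.

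**Figure D2:**
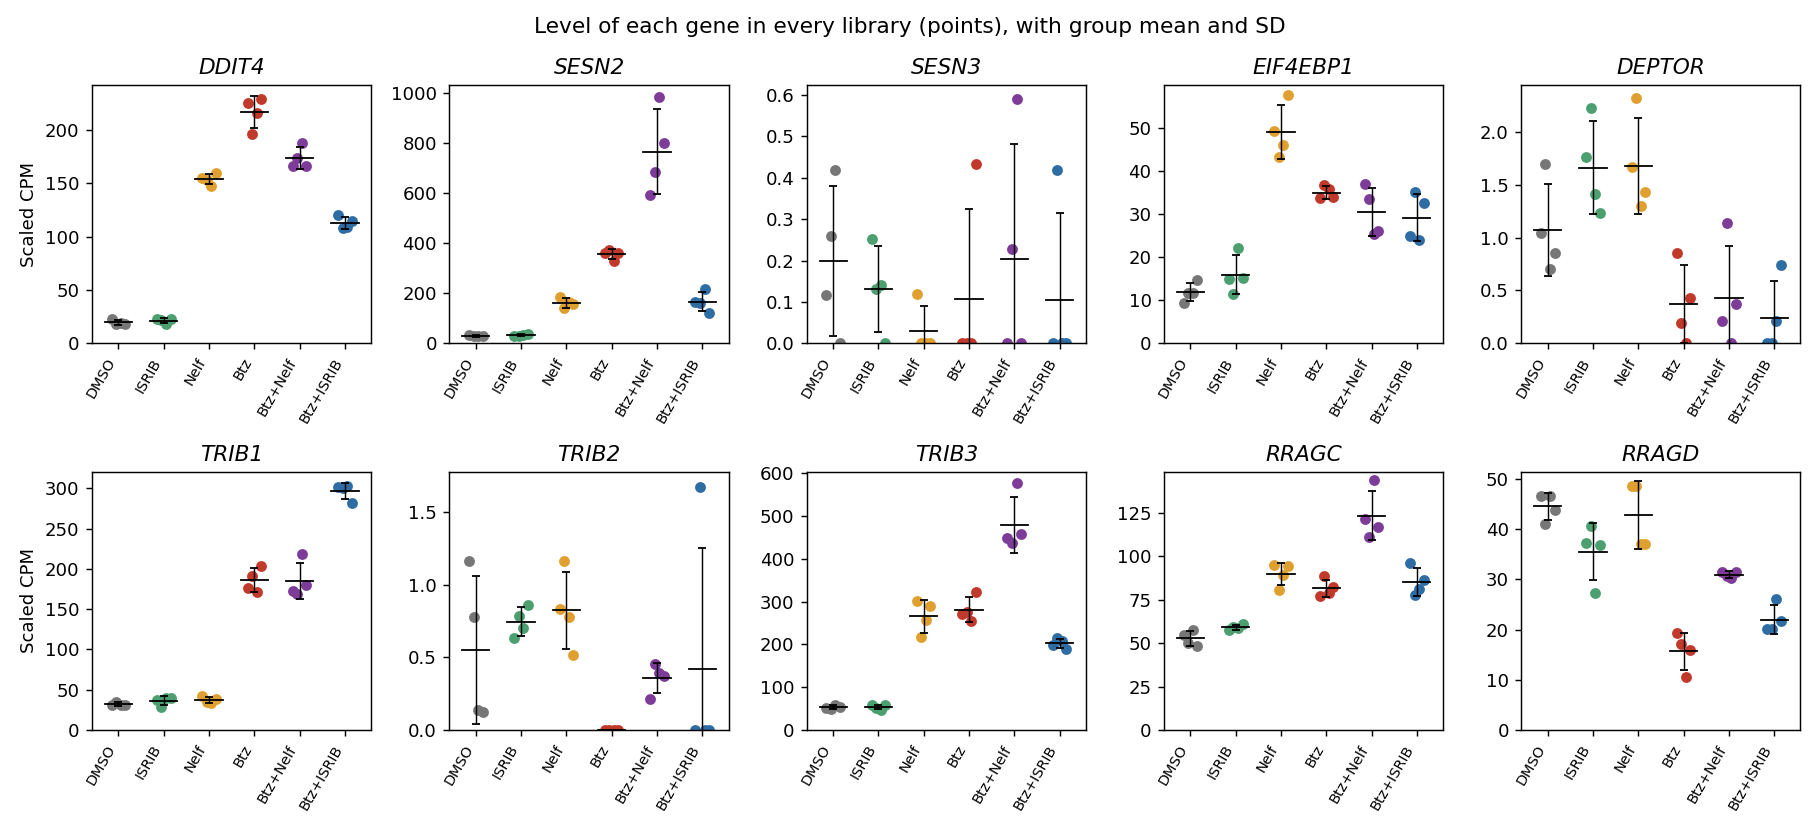
TMM-scaled CPM of the 10 genes in each of the 24 libraries, on a linear axis from 0, with the group mean (line) and SD (bar). *DDIT4* is highest with bortezomib, *SESN2* and *TRIB3* with bortezomib and nelfinavir, *TRIB1* with bortezomib and ISRIB, and *EIF4EBP1* with nelfinavir.

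*DDIT4* (ENSG00000168209, chromosome 10, 74033678 to 74035794 on GRCh37) rose with nelfinavir and with bortezomib, and with the pair it was lower than with bortezomib alone. It read 23.1, 18.4, 19.3 and 18.0 CPM in the DMSO libraries and 22.3, 21.9, 18.4 and 22.6 with ISRIB. With nelfinavir it read 154.9, 153.5, 147.8 and 159.4 CPM, and with bortezomib 225.8, 196.6, 215.9 and 229.5. The DMSO and ISRIB libraries overlapped, and all nelfinavir libraries lay above them and below all bortezomib libraries. With bortezomib and nelfinavir the level was 166.6, 173.9, 188.2 and 166.1 CPM, and with bortezomib and ISRIB it was 120.0, 108.5, 109.1 and 114.5. Every co-treated library lay below every bortezomib library.

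Against DMSO, the log2 fold change of *DDIT4* was 3.46 ± 0.10 (SE) with bortezomib, a 10.98-fold difference (adjusted p = 1.65e-24). It was 2.96 ± 0.10 with nelfinavir, or 7.79-fold (adjusted p = 3.74e-22), which ranked 2 by p among the 12685 genes. On adding nelfinavir to bortezomib, *DDIT4* fell by 0.32 ± 0.08 on the log2 scale (adjusted p = 0.00439). That call did not hold without the filter on low counts (a log2 change of -0.27, adjusted p = 0.0519). The interaction of nelfinavir and bortezomib was -3.28 ± 0.13 (adjusted p = 2.42e-19), with the smallest p of all 12685 genes. The level with both compounds thus stood at 0.103 times the product of the separate fold changes. On adding ISRIB to bortezomib, *DDIT4* fell by 0.94 ± 0.09 (adjusted p = 1.32e-09), to 0.521 times the level with bortezomib alone, and it ranked 18 by p. It nevertheless stayed above ISRIB alone by a log2 difference of 2.41 ± 0.10 (adjusted p = 2.30e-20).

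*SESN2* (ENSG00000130766, chromosome 1, 28586029 to 28609002), which codes for a leucine-sensing Sestrin, rose with nelfinavir and with bortezomib, and further with the pair. It read 33.5, 31.0, 27.2 and 27.9 CPM with DMSO and 29.6, 29.8, 33.9 and 35.8 with ISRIB. It read 186.6, 140.4, 163.3 and 157.5 CPM with nelfinavir and 358.9, 373.7, 327.2 and 361.8 with bortezomib. The nelfinavir libraries did not overlap with the DMSO or the bortezomib libraries. With bortezomib and nelfinavir it read 593.3, 683.5, 983.9 and 801.0 CPM, above every other library, and with bortezomib and ISRIB 166.1, 160.0, 214.8 and 122.9, overlapping with nelfinavir alone.

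The log2 fold change of *SESN2* against DMSO was 3.57 ± 0.14 with bortezomib (11.9-fold, adjusted p = 4.45e-20) and 2.44 ± 0.14 with nelfinavir (5.41-fold, adjusted p = 2.78e-15). Nelfinavir added to bortezomib raised it by 1.11 ± 0.13 (2.15-fold, adjusted p = 4.39e-08), and ISRIB added to bortezomib lowered it to 0.468 times (a log2 change of -1.10 ± 0.13, adjusted p = 2.44e-07). The rise on adding nelfinavir was smaller with bortezomib than without it, by an interaction of -1.33 ± 0.19 (adjusted p = 2.58e-06). The levels with nelfinavir and with bortezomib and ISRIB did not differ by the test, at a log2 difference of 0.04 with a 95% interval of -0.23 to 0.30. *DDIT4* and *SESN2* were thus moved in opposite directions by nelfinavir on top of bortezomib, and in the same direction by ISRIB. The difference between the genes was not tested.

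*SESN3* (ENSG00000149212, chromosome 11, 94898677 to 94965705) was hardly read. Its group sums ran from 1 count over the nelfinavir libraries to 6 over the DMSO libraries, and it was not tested. A difference in *SESN3* was not detectable at this depth. It overlaps the long non-coding RNA gene LNCRNA-IUR on the opposite strand, and the strand setting of the counting is not given in the sources used here.

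*EIF4EBP1* (ENSG00000187840, chromosome 8, 37888052 to 37917883) was highest with nelfinavir alone. Its level was 9.41 to 14.7 CPM with DMSO, 43.1 to 57.5 with nelfinavir and 33.6 to 36.7 with bortezomib, and these 3 ranges did not overlap. With bortezomib and nelfinavir it was 25.3 to 37.0 CPM, below every nelfinavir library. Bortezomib raised it by 1.56 ± 0.17 on the log2 scale (adjusted p = 3.57e-09) and nelfinavir by 2.05 ± 0.17 (adjusted p = 2.43e-11). On adding nelfinavir to bortezomib the change was -0.20, with a 95% interval of -0.54 to 0.14, and the interaction was -2.25 ± 0.24 (adjusted p = 1.31e-08). The pair was below nelfinavir alone, at a log2 difference of -0.69 ± 0.16 (adjusted p = 0.000517). On adding ISRIB to bortezomib the change was -0.27, with an interval of -0.61 to 0.08.

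*DEPTOR* (ENSG00000155792, chromosome 8, 120885957 to 121063157) was called in none of the 7 comparisons, though the tests of all pairs of groups called it lower with bortezomib and ISRIB than with DMSO, at 4 against 34 counts in all (a log2 difference of -2.17 ± 0.83, adjusted p = 0.0268, with overlapping groups). It had 9, 13, 5 and 7 counts in the DMSO libraries and 4, 1, 0 and 2 with bortezomib. The ratio of the summed levels, bortezomib over DMSO, was 0.339, with a counting interval of 0.127 to 0.777, and the fitted log2 change of -1.51 had an adjusted p of 0.0872. With bortezomib it was below the nelfinavir level by the test, at -2.14 ± 0.71 (adjusted p = 0.0129). The same tests called it lower with bortezomib, and with either pair of compounds, than with nelfinavir alone and with ISRIB alone. In these comparisons the groups did not overlap, and the log2 differences ran from -1.95 to -2.80. For bortezomib against DMSO the call appeared without the first bortezomib library (a log2 change of -2.32, adjusted p = 0.0299). An antisense gene, DEPTOR-AS1, overlaps it, and their reads cannot be told apart where strand was not used.

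*RRAGC* and *RRAGD* moved in opposite directions with bortezomib. *RRAGC* (ENSG00000116954, chromosome 1, 39303870 to 39325444) read 55.0, 50.3, 57.4 and 48.3 CPM with DMSO and 77.2, 88.4, 79.0 and 82.3 with bortezomib. *RRAGD* (ENSG00000025039, chromosome 6, 90074335 to 90121992) read 46.7, 41.0, 46.6 and 43.9 CPM with DMSO and 19.3, 17.1, 10.6 and 15.99 with bortezomib. For each gene the groups did not overlap, *RRAGC* being higher and *RRAGD* lower with bortezomib.

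The log2 fold change with bortezomib was 0.63 ± 0.10 for *RRAGC* (1.55-fold, adjusted p = 1.11e-06) and -1.50 ± 0.15 for *RRAGD* (0.353 times, adjusted p = 3.86e-10). Scaled by library totals alone, a setting that moved the median of all genes by -0.50, *RRAGC* was no longer called (0.13, adjusted p = 0.243). Under it 1490 genes were higher and 6266 lower, against 3498 and 3275 with TMM. Nelfinavir alone raised *RRAGC* to 80.9 to 95.2 CPM (0.77 ± 0.09, adjusted p = 1.28e-07), while *RRAGD* stayed within a 95% interval of -0.33 to 0.22 of DMSO. Nelfinavir added to bortezomib raised both, *RRAGC* to 111.3 to 144.0 CPM (0.60 ± 0.09, adjusted p = 1.11e-05) and *RRAGD* to 30.3 to 31.5 CPM (0.98 ± 0.16, adjusted p = 1.33e-05). Only *RRAGD* of the 9 members tested had a nelfinavir interaction above 0 that was called, at 1.03 ± 0.21 (adjusted p = 0.000447). With ISRIB added to bortezomib, *RRAGD* read 20.0 to 26.1 CPM, a log2 change of 0.48 ± 0.16 (adjusted p = 0.0444), which was lost in most fits that left out 1 library, with an adjusted p of up to 0.190 without the third bortezomib library (0.33). For *RRAGC* the change was 0.06, with an interval of -0.14 to 0.26. *RRAGC* shares 20440 bases with a long non-coding RNA gene on the same strand, ENSG00000273637. If both were counted, the counting could have split reads between them.

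**Figure D3:**
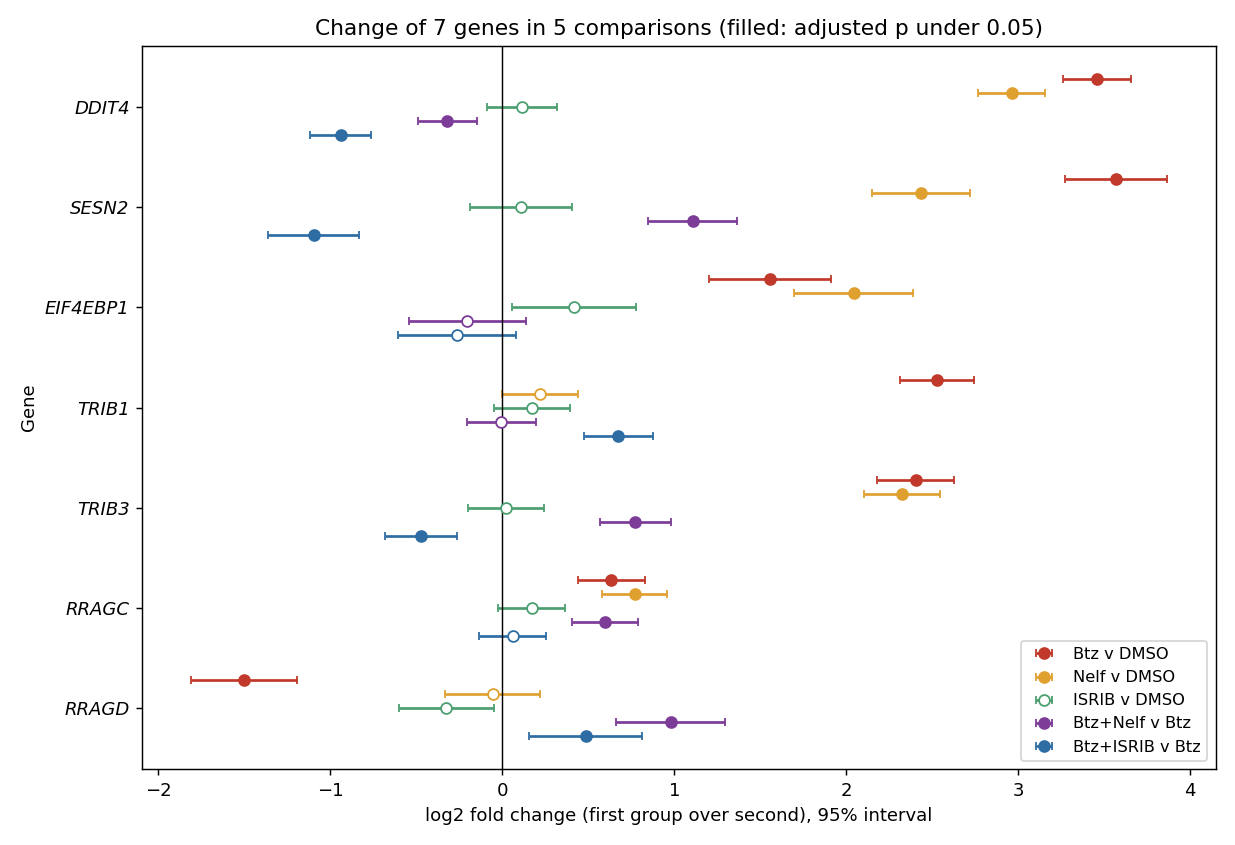
log2 fold changes of 7 genes in 5 comparisons, with 95% intervals, filled where the adjusted p was under 0.05. *RRAGD* is the gene that lies below 0 with bortezomib (-1.50), and *TRIB1* is the one that lies above 0 with bortezomib (2.53) but was not called with nelfinavir (0.22).

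*TRIB3* (ENSG00000101255, chromosome 20, 343479 to 378203) was raised to like levels by bortezomib and nelfinavir and further by the pair. It read 51.0, 48.7, 58.2 and 54.7 CPM with DMSO and 58.1, 51.3, 47.9 and 58.2 with ISRIB. It read 302.0, 216.3, 256.1 and 290.3 CPM with nelfinavir and 270.1, 275.6, 255.2 and 323.1 with bortezomib. The nelfinavir and bortezomib libraries overlapped, and all lay above DMSO and ISRIB. With bortezomib and nelfinavir it read 447.5, 437.1, 576.8 and 457.6 CPM, and with bortezomib and ISRIB 198.1, 214.7, 207.8 and 189.8. The former lay above, and the latter below, every bortezomib library.

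Against DMSO the log2 fold change of *TRIB3* was 2.40 ± 0.11 with bortezomib (5.29-fold, adjusted p = 7.53e-19) and 2.33 ± 0.11 with nelfinavir (5.01-fold, adjusted p = 9.96e-18). The log2 difference of bortezomib from nelfinavir was 0.08, with a 95% interval of -0.13 to 0.28. Nelfinavir added to bortezomib raised it by 0.77 ± 0.10 (1.71-fold, adjusted p = 5.06e-07), and ISRIB added to bortezomib lowered it to 0.721 times (-0.47 ± 0.10, adjusted p = 0.00177). The interaction was -1.55 ± 0.15 for nelfinavir (adjusted p = 1.03e-09) and -0.49 ± 0.15 for ISRIB (adjusted p = 0.0486). The latter was lost in most fits that left out 1 library, with an adjusted p of up to 0.138.

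*TRIB1* (ENSG00000173334, chromosome 8, 126442600 to 126450645) was higher with bortezomib, was not called with nelfinavir, and was highest with bortezomib and ISRIB. It read 31.5, 35.4, 30.8 and 31.1 CPM with DMSO, and 42.4, 34.5, 34.1 and 38.7 with nelfinavir. It read 176.2, 191.6, 171.5 and 204.0 CPM with bortezomib, and 173.1, 168.3, 218.5 and 180.0 with bortezomib and nelfinavir. The first pair of groups overlapped, as did the second, while all libraries with bortezomib lay far above those without it. With bortezomib and ISRIB it read 302.1, 300.3, 302.8 and 281.4 CPM, above every other library.

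The log2 fold change of *TRIB1* was 2.53 ± 0.11 with bortezomib (5.77-fold, adjusted p = 1.42e-19) and 0.22 with nelfinavir, with a 95% interval of 0.00 to 0.44 (adjusted p = 0.175). Nelfinavir added to bortezomib gave -0.01, with an interval of -0.21 to 0.19. ISRIB added to bortezomib raised it by 0.68 ± 0.10 (1.60-fold, adjusted p = 9.17e-06). For ISRIB, which lowered *DDIT4*, *SESN2* and *TRIB3* on top of bortezomib, the interaction for *TRIB1* was 0.51 ± 0.15 (adjusted p = 0.0383). That call was lost with RLE factors (0.49, adjusted p = 0.0531), with library totals, and in most fits that left out 1 library (adjusted p of up to 0.109).

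*TRIB2* (ENSG00000071575, chromosome 2, 12857036 to 12882860) was near the floor of the measurement. It had 10, 6, 1 and 1 counts in the DMSO libraries and 0 in all 4 bortezomib libraries, so that the groups did not overlap. It was called lower with bortezomib (adjusted p = 0.0123). The level was 3.65-fold lower when the bortezomib group was given a floor of 3 counts in all. That value takes the 18 DMSO counts as exact, so it is not a lower limit on the difference. It had 1, 2, 2 and 2 counts with bortezomib and nelfinavir, and 0, 8, 0 and 0 with bortezomib and ISRIB, neither of which was called against bortezomib.

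Within the Tribbles reads, *TRIB3* took 57.4% to 65.3% with DMSO, 54.0% to 63.8% with ISRIB and 59.0% to 61.3% with bortezomib. Its share was 85.9% to 88.1% with nelfinavir, 71.7% to 72.5% with bortezomib and nelfinavir, and 39.6% to 41.6% with bortezomib and ISRIB. Bortezomib thus raised the summed reads with *TRIB1* and *TRIB3* at about the DMSO proportion, and of the 6 groups only bortezomib with ISRIB had *TRIB1* as the larger part, at 58.1% to 60.4%. These shares are a description of values tested above.

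**Figure D4:**
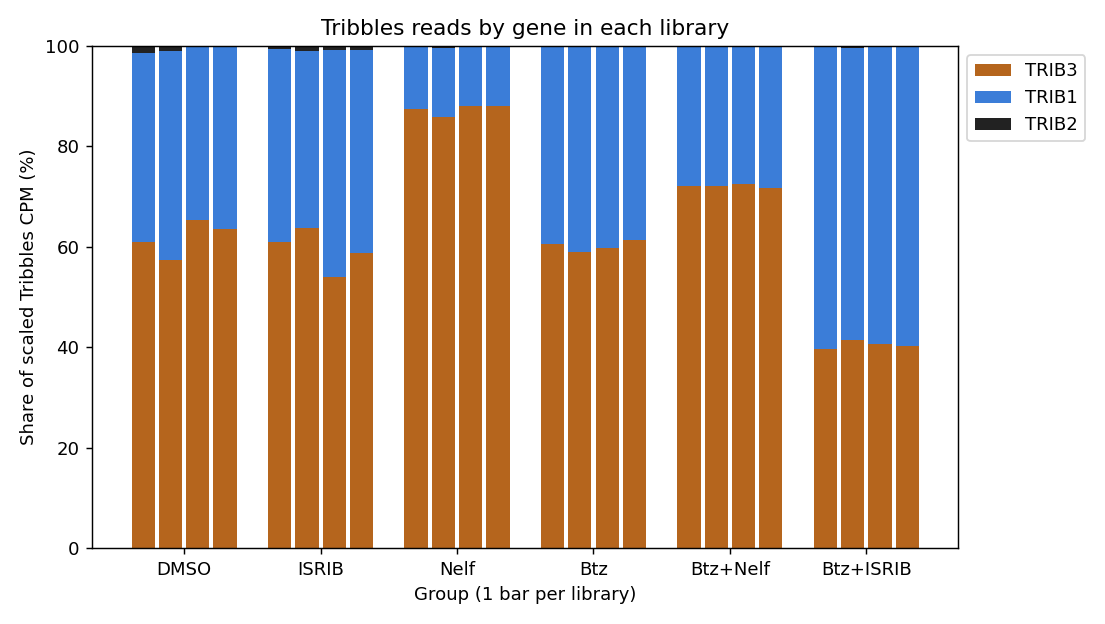
Share of the summed TMM-scaled CPM of *TRIB1*, *TRIB2* and *TRIB3* taken by each gene, in percent, with 1 bar per library. *TRIB3* takes 85.9% to 88.1% with nelfinavir and 39.6% to 41.6% with bortezomib and ISRIB.

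Set in order of mean level, 17 of the 45 pairs of neighbouring groups over the 9 members tested were called different. The order came from the same libraries, so these tests only describe which neighbours lay within their spread. For *DDIT4* the order was DMSO, ISRIB, bortezomib with ISRIB, nelfinavir, bortezomib with nelfinavir, bortezomib. The neighbours not called were DMSO and ISRIB, and nelfinavir without and with bortezomib. The libraries of the latter pair did not overlap, at a log2 difference of 0.175 (interval 0.003 to 0.346, adjusted p = 0.0763). For *TRIB3* it was DMSO, ISRIB, bortezomib with ISRIB, nelfinavir, bortezomib, bortezomib with nelfinavir, and for *SESN2* nelfinavir stood below bortezomib with ISRIB. For *TRIB1* the calls fell between nelfinavir and bortezomib with nelfinavir (2.30 ± 0.11) and between bortezomib and bortezomib with ISRIB. For *EIF4EBP1* they fell between ISRIB and bortezomib with ISRIB (0.88 ± 0.17) and between bortezomib and nelfinavir (0.49 ± 0.16). For *RRAGC* they fell between ISRIB and bortezomib (0.46 ± 0.10) and between nelfinavir and bortezomib with nelfinavir (0.46 ± 0.09). *RRAGD* ran from bortezomib through bortezomib with ISRIB to bortezomib with nelfinavir, each step called. The next step, from bortezomib with nelfinavir to ISRIB alone, was not called (0.20, interval -0.09 to 0.49). The 3 groups without bortezomib were not told apart. No neighbours were called for *TRIB2* or *DEPTOR*.

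Over all genes, the pairs behind these calls differed widely. The shares below are for fixed pairs of groups, not for neighbours ordered within each gene, so they are no background for the count of neighbours. Bortezomib differed from ISRIB in 54.2% of genes and from nelfinavir in 48.7%. Bortezomib with ISRIB differed from ISRIB in 54.7%, from nelfinavir in 50% and from bortezomib with nelfinavir in 24.4%. Bortezomib with nelfinavir differed from nelfinavir in 57.1% and from ISRIB in 62%, and nelfinavir differed from ISRIB in 17.4%.

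**Figure D5:**
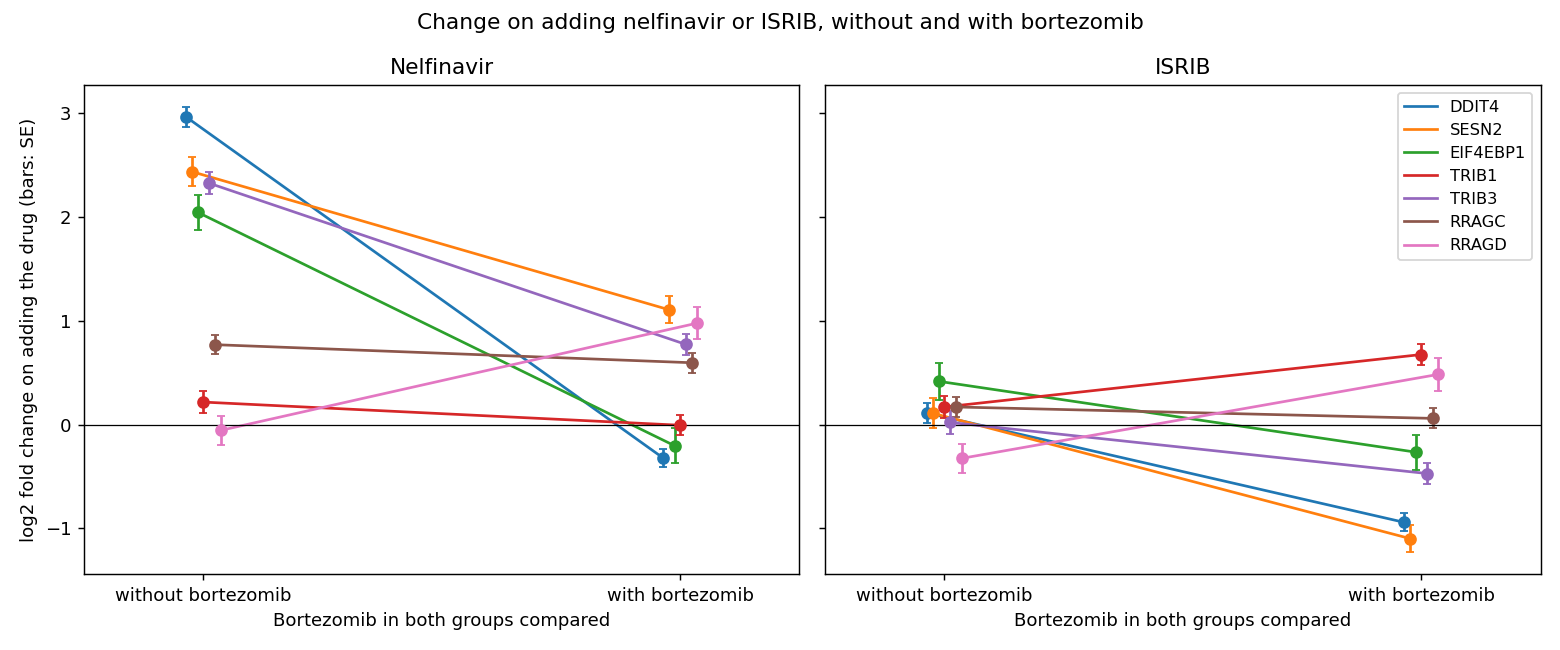
log2 fold change on adding nelfinavir (left) or ISRIB (right), without and with bortezomib in both groups compared, for 7 genes, with SE. For *DDIT4* the change with nelfinavir goes from 2.96 without bortezomib to -0.32 with it, and for *RRAGD* from -0.06 to 0.98.

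Of 69 other genes listed in 9 groups around mTORC1 and the Tribbles proteins, 65 were in the table and 64 were tested. With bortezomib 26 were higher and 18 lower, so that 68.8% were called, beside 53.4% of all genes. With nelfinavir 13 were higher and 1 lower, or 21.9% beside 19.2%. Nelfinavir added to bortezomib raised 14 and lowered 5, or 29.7% beside 28.9%, and ISRIB added to bortezomib raised 1 and lowered 3, or 6.25% beside 12.2%. None was called for ISRIB alone, where 2 had an unadjusted p under 0.05, or for the interaction of ISRIB and bortezomib, where 3 did and 4.82% of all genes were called. For nelfinavir the interaction was above 0 for 3 and below 0 for 8, or 17.2% beside 19.7%. These lists were also chosen with earlier results of these data known.

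The 3 other pathway genes with the smallest p for bortezomib were *ULK1*, *DDIT3* and *CEBPB*. *ULK1*, the autophagy-starting kinase that mTORC1 restrains, went from a mean of 11.1 CPM with DMSO to 101.9 with bortezomib (a log2 change of 3.19 ± 0.13) and 50.8 with nelfinavir (2.19 ± 0.13), and its nelfinavir interaction was -1.66 ± 0.17. *DDIT3*, which codes for the stress factor CHOP, a partner of TRIB3, changed by 2.44 ± 0.13 with bortezomib, 2.55 ± 0.13 with nelfinavir and 0.99 ± 0.12 on adding nelfinavir to bortezomib. *CEBPB*, one of the C/EBP factors, rose by 2.45 ± 0.19 with bortezomib, and ISRIB added to bortezomib lowered it by a change of -0.59 ± 0.18 (adjusted p = 0.0226). *ATF4* itself went from 232.9 CPM with DMSO to 866.3 with nelfinavir (1.90 ± 0.12), and from 602.8 with bortezomib to 1078 with the pair (0.84 ± 0.12). On adding ISRIB to bortezomib, *CEBPB* was the only gene called of the 8 Tribbles partners. *ATF4* then went from 602.8 to 547.5 CPM and *DDIT3* from 72.5 to 68.4, and neither was called. *SEC13*, a GATOR2 and COPII subunit, was higher on adding either nelfinavir (0.66 ± 0.09) or ISRIB (0.29 ± 0.09) to bortezomib, and *LARS*, the leucyl-tRNA synthetase, was lower on adding ISRIB (-0.34 ± 0.10).

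By group, the share of tested genes called with bortezomib, beside the 53.4% of all genes, was 41.7% for GATOR and KICSTOR, 50% for the AMPK list, 63.6% for the Rag and lysosomal list, 66.7% for the MiT/TFE factors, 71.4% for the mTORC1 core, 75% for Tribbles partners and 88.9% for mTORC1 outputs. All 3 tested amino acid sensors and all 5 TSC and Rheb genes were called. With 3 to 12 genes a list, 1 gene moves these shares far. Of the TSC and Rheb genes, 4 were higher and 1 lower with bortezomib, and 0 were called with nelfinavir, where 19.2% of all genes were. *RHEB*, the small GTPase that activates mTORC1, changed by 1.02 with bortezomib and *TSC2*, its inhibitor, by 0.70. Of the 11 Rag, Ragulator and lysosomal sensing genes, 2 were higher and 5 lower with bortezomib, and 2 were higher with nelfinavir. *RRAGA*, which codes for a partner of RagC and RagD, was lower with bortezomib, from 94.5 to 61.3 CPM (-0.62). *SESN1*, the third Sestrin gene, was lower too, from 18.7 to 9.68 CPM (-0.94, adjusted p = 0.000207), while *SESN2* rose. *EIF4EBP2*, the relative of *EIF4EBP1*, changed by -0.45 (adjusted p = 0.00335). These 5 genes were picked after their values were seen, to stand beside their relatives among the members. The treatment check gene *ASNS*, an ATF4 target, had a mean of 127.7 CPM with bortezomib and ISRIB. It went from 15.4 CPM with DMSO to 246.9 with nelfinavir and 146.1 with bortezomib. The heat shock gene *HSPA1A* went from 74.2 to 31.9 and 3346 CPM, and *HSPA1B* from 38.0 to 19.2 and 1424. The check gene *HMOX1* changed less, by 0.62 ± 0.15 with bortezomib, and was not called with nelfinavir (-0.35 ± 0.15). *CHAC1* was hardly read, at 0 counts with DMSO and with bortezomib and 2 with nelfinavir, and was not tested.

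The genes whose log2 CPM followed each member most closely over the 24 libraries were named from all genes tested. The points share their group, scaling and libraries, so that Pearson's r describes mainly the group means. *TRIB3* was followed most closely by *DDIT3* (r = 0.986), *MARS* (0.986) and *GARS* (0.985), the last pair coding for tRNA synthetases. *DDIT4* was nearest to *S100P* (0.979), *DDR2* (0.975) and *SLC7A11* (0.975), the cystine transporter. *SESN2* was nearest to *JMY* (0.995), *EIF1* (0.986) and *MTHFD1L* (0.981). Among the genes nearest to *TRIB1* were *CLDN4* (0.993) and *MICA* (0.986).

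Lower values of r were reached by the other members. *EIF4EBP1* was nearest to *SLC1A5* (0.922), a glutamine transporter, *BCAT1* (0.907) and *CEBPB* (0.905), and *RRAGC* to *MKNK2* (0.948), *PKD1* (0.947) and *MTHFD1L* (0.942). *RRAGD* was nearest to *PPARGC1A* (0.918), *NR2F1* (0.910) and *MTUS1* (0.898). For the low-count genes the nearest were *SPATA2L* (0.797), *CADPS2* (0.779) and *ZC3H10* (0.772) for *TRIB2*, and *DCPS* (0.850), *MCTS1* (0.849) and *ALDH6A1* (0.847) for *DEPTOR*. Among the members, r was 0.961 between *DDIT4* and *TRIB3*, 0.971 between *SESN2* and *TRIB3*, and 0.680 between *TRIB1* and *TRIB3*.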

How the data were processed

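Total RNA from 24 HepG2 cultures was made into QuantSeq 3′ libraries. The authors trimmed the reads with cutadapt 2.8, aligned them with STAR to hg19 and deposited raw counts per gene, with 0 further sample columns left unused. Which program counted the reads, whether it used strand, and whether molecular identifiers were read is not given in the sources used here. Gene positions and overlaps were taken from a GENCODE annotation lifted to GRCh37, while the authors counted in Ensembl genes of chosen types. Whether the overlapping genes named here were among those counted was not checked. Reads may thus not be independent molecules, and counting intervals and floors cover counting error only. Here the counts were filtered with filterByExpr of edgeR 4.0.16 in R 4.3.3, at a minimum of 5 counts and a minimum total of 25, then TMM-scaled and tested with the quasi-likelihood test, 1 coefficient per group over 6 groups of 4 libraries, for 7 comparisons and all pairs of groups, with Benjamini-Hochberg adjusted p over all genes. Groups were taken from the sample labels. The p-values rest on the spread between the libraries of a group, and 36 pairs of replicate libraries all differed by more than sampling noise. CPM for correlations had a prior count of 2. The script was tested on simulated data.

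The members and the lists of other genes were chosen with earlier results of these data known. Named are all 10 members, the 3 other pathway genes with the smallest p among those called in each comparison, the 3 genes nearest each tested member by Pearson's r, and check and marker genes. A result of the rule on nearest genes is not reported here. Alternatives were RLE factors, library totals, removal of mitochondrially encoded genes, DESeq2 1.42.0, no filter, the default filter, only the groups compared, the replicate number as a block, and each library left out. The wider motif windows were added after seeing the data. Replicate numbers were not used to pair samples. Peak tables of another assay were not used here.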

Additional observations from a re-analysis of the deposited data

Results flagged for a closer look

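Of 59 groups of 4 libraries checked for a sample that stood apart from the other three, 8 were picked out. Chance gives about 1 in 20 for measured levels, a rate that does not apply to the 4 *SESN3* and *TRIB2* groups, where any single library with counts stands apart from others at 0. *DDIT4* read 18.36 CPM in ISRIB replicate 3, with the nearest library at 21.91. *TRIB1* read 35.41 CPM in DMSO replicate 2 (nearest 31.49) and 281.4 CPM in replicate 4 of bortezomib with ISRIB (nearest 300.3). *TRIB3* read 576.8 CPM in replicate 3 of bortezomib with nelfinavir (nearest 457.6). *TRIB2* read 1.675 CPM, from 8 counts, in replicate 2 of bortezomib with ISRIB, where the other libraries held none. *SESN3* read 0.1195 CPM in nelfinavir replicate 1, 0.4322 in bortezomib replicate 4 and 0.4188 in replicate 2 of bortezomib with ISRIB, each the single library of its group with any count.

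The change made by a second compound differed with and without bortezomib, by the edgeR interaction test, for 6 members. For nelfinavir the log2 interaction was -3.283 for *DDIT4*, -2.248 for *EIF4EBP1*, -1.553 for *TRIB3*, -1.329 for *SESN2* and 1.033 for *RRAGD*. For ISRIB it was -1.206 for *SESN2*, -1.052 for *DDIT4*, -0.493 for *TRIB3*, 0.505 for *TRIB1* and 0.809 for *RRAGD*. Over all genes, the same test called 19.7% for nelfinavir and 4.82% for ISRIB. The ISRIB calls of *TRIB3* and *TRIB1* were kept in only 11 and 10 of 24 alternative fits.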

How the results depend on the processing

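No called change of a member reversed its direction under any alternative run. Of the 63 results, 8 that were not called crossed 0 under some alternative, among them 3 of *DEPTOR* and the ISRIB interaction of *TRIB2*, which ran from -0.40 to 4.51, so that no direction can be read from these. With DESeq2, the replicate block and removal of mitochondrially encoded genes, all 63 calls were as in the edgeR fit. The default filter left out *TRIB2* and gave the same 56 calls of the remaining members. With 1 library left out in turn, the members called for the interaction of ISRIB and bortezomib ran from 3 to 5, against 5 with all libraries, and 11 of these 16 fits were more than 1.5 times lower. Leaving out 1 library gave 8 to 9 members for bortezomib against DMSO, 5 for nelfinavir against DMSO and for adding nelfinavir to bortezomib, 4 to 5 for adding ISRIB, and 16 to 18 neighbouring pairs. *RRAGD* on adding ISRIB to bortezomib was also lost with library totals (0.42, adjusted p = 0.0997), with no filter (0.48, adjusted p = 0.0517) and with only the groups compared (0.48, adjusted p = 0.172). Its ISRIB interaction was lost without bortezomib replicate 3 (0.66, adjusted p = 0.0581). *DEPTOR* was called lower with bortezomib under library totals (-1.98, adjusted p = 0.0196). With only the groups compared in the fit, the genes called of all tested went from 2441 to 3873 for nelfinavir against DMSO, from 3669 to 2246 for adding nelfinavir to bortezomib and from 1553 to 867 for adding ISRIB. Leaving out 1 library gave 5 members for the interaction of nelfinavir and bortezomib and 0 for ISRIB against DMSO. The cause of these changes was not tested.

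Replicate numbers do not pair the samples by the labels, and 10 of 60 same-number pairs of libraries in different groups had deviations that correlated over 0.1, beside 7 of 180 other pairs. Fitting the number as a replicate block left 8, 5, 0, 5, 5, 5 and 5 members called in the 7 comparisons. The depth limits *SESN3*, *TRIB2* and *DEPTOR*, which had at most 6, 26 and 53 counts in any group.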
